A study of Homo sapiens with 12 samples.

Results

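The human HOX clusters HOXA, HOXB, HOXC and HOXD carry miRNA genes among their protein-coding genes. The mature miRNAs counted from these miRNA genes were examined in 2 pancreatic ductal adenocarcinoma (PDAC) cell lines. The 6 miRNAs described here are miR-10a-5p and miR-10a-3p from HOXB, miR-10b-5p and miR-10b-3p from HOXD, miR-196a-5p from HOXB or HOXC, and miR-196b-5p from HOXA. In the files they are hsa-mir-10a-5p, hsa-mir-10a-3p, hsa-mir-10b-5p, hsa-mir-10b-3p, hsa-mir-196a-5p and hsa-mir-196b-5p. They were chosen by these names from the 1733 miRNAs listed in at least 1 of the 12 libraries. AsPC-1 is a line from the ascites of a patient with PDAC, and PANC-1 is a line from a primary pancreatic tumor. Each line had 3 control libraries and 3 libraries from cells given siRNA against MYEOV, a gene first described as overexpressed in myeloma.

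Both groups of a line went through the same lipid transfection protocol, according to the labels, and small RNA was taken 48 h later. The labels call the controls wild type and untreated, whereas the methods of the study describe a negative-control siRNA, and the methods give an earlier harvest. The siRNA of each single knockdown library is not given in the sources used here, although the labels name a pair of MYEOV siRNAs. AsPC-1 was grown in RPMI 1640 and PANC-1 in DMEM, so line and medium cannot be told apart. Each line stands for a single tumor, and nothing in the labels says that replicates came from separate cultures, so the p-values measure only the spread between these libraries. MYEOV itself is not measured by small RNA libraries.

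HOX genes set position along the body axis during development, and adult cells often keep the HOX pattern of their origin. The miR-10 genes lie beside the HOX4 genes and the miR-196 genes lie beside the HOX9 genes. The miR-196 miRNAs repress HOX mRNAs such as HOXB8, and miR-10b is known for repressing HOXD10 and for its part in the invasion of tumor cells. A hairpin gives a 5p and a 3p arm, of which one, the guide, is usually kept and the other, the passenger, is mostly lost.

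The mature sequences are shown because they decide which locus a read can be given to. They were taken from the RefSeq miRNA table (GRCh38.p14), in which 5 of the 6 members, all but miR-10b-5p, had an entry, and capitals mark the seed, bases 2 to 8 from the 5′ end.
miR-10a-5p: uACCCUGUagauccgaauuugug
miR-10a-3p: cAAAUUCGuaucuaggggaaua
miR-10b-3p: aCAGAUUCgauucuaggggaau
miR-196a-5p: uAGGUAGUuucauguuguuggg
miR-196b-5p: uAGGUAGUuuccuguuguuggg

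The seed AGGUAGU of miR-196a-5p was shared with miR-196b-5p and with no other of the 2370 mature entries in the table. These 2 miRNAs differed by A12C, counted from 1 at the 5′ end with the base of miR-196a-5p first, so that their reads are told apart by a single base. The same 7 letters occur in let-7a-5p, where they start at base 3 and not at base 2. The seeds of miR-10a-3p and miR-10b-3p were each carried by 1 entry. MiR-10a-5p shared an 11-base stretch with miR-100-5p, which belongs to the related miR-99 and miR-100 family. The passenger arms miR-10a-3p and miR-10b-3p also shared 11 bases, but their seeds differed. The closely related guide strands miR-10a-5p and miR-10b-5p, and likewise miR-196a-5p and miR-196b-5p, can take each other's reads, and the lower member of each pair is uncertain for that reason.

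MiR-196a-5p has a gene in HOXB and another in HOXC, and its reads cannot be assigned to either of them. The hairpins of both genes are shown because their 5p arms are identical while their 3p arms differ between the loci. Capitals mark the 5p arm and the 3p arm.
MIR196A1 (HOXB): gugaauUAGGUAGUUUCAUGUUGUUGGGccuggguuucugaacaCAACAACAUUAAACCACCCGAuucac
MIR196A2 (HOXC): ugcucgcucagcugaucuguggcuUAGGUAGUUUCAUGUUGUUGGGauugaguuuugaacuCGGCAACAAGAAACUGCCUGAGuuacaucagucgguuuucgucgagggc

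On GRCh37, the build the authors mapped to, MIR10A lies on the minus strand at chr17:46657200-46657309, in an intron of HOXB3 transcripts and 1487 bp from HOXB4. MIR10B lies on the plus strand at chr2:177015031-177015140, in an intron of a HOXD3 transcript and 1137 bp from HOXD4. MIR196A1 lies on the minus strand at chr17:46709852-46709921, in an intron of a HOXB7 transcript, with HOXB9 6131 bp downstream. MIR196A2 lies on the plus strand at chr12:54385522-54385631, in an intron of a HOXC6 transcript, with HOXC10 1458 bp upstream and HOXC9 3047 bp downstream. MIR196B lies on the minus strand at chr7:27209099-27209183, within HOXA9, where it is exonic in 1 transcript and intronic in 2, and HOXA10 is 1040 bp upstream. MIR615, whose 3p arm serves here as a further read-out of HOXC, lies on the plus strand at chr12:54427734-54427829, in introns of HOXC4 and HOXC5. All of these genes lie on the strand of the protein-coding HOX genes around them. On the opposite strand, the long noncoding RNA genes HOXB-AS3, HOXB-AS4 and HOXA10-AS overlap MIR10A, MIR196A1 and MIR196B, in this order.

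The libraries held 3805084 to 7311783 counted reads, with 5587106 or more in every AsPC-1 library and 5049361 or fewer in every PANC-1 library. AsPC-1 control replicate 1 stood apart from the other libraries of its group. Its chi-square per degree of freedom against them was 224 and 183, whereas the other pairs of replicates gave 8.13 to 59.7. The epithelial miR-200 family, 5 miRNAs, summed to 48700 to 52700 RPM (reads per 1000000 counted reads of a library) in AsPC-1 and to 212 to 276 in PANC-1. Of the markers of other cell types, those of acinar cells reached at most 0.509 RPM and those of fibroblasts at most 7.84 (AsPC-1) and 82.4 (PANC-1). In this order, the islet miR-375 reached 2.19 and 12.1, blood markers 16.6 and 3.1, the liver miR-122-5p 10.8 and 5.27, and muscle markers 1.54 and 178. MiR-223-3p had no read in PANC-1, miR-206 had none in either line and miR-133a-5p had none in AsPC-1. These levels moved with the line, and their part in the differences between the lines was not tested. In such bulk libraries, fewer cells of a type and less RNA per cell cannot be told apart.

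HOXB gave most HOX-encoded miRNA reads in both lines, HOXD gave almost none in AsPC-1, and HOXA gave almost none in PANC-1. The miR-10a arms, which are particular to HOXB, made up 94.4% ± 0.582 (SD, n = 3) of all HOX-encoded reads, those of the members, of the other arms of their hairpins and of both arms of miR-615, in AsPC-1 controls and 80.1% ± 0.468 in PANC-1 controls. The miR-10b arms of HOXD made up 0.0594% ± 0.00266 in AsPC-1 controls and 7.32% ± 0.0981 in PANC-1 controls. The miR-196b arms of HOXA showed the opposite order, with 1.30% ± 0.396 (AsPC-1) and 0.0113% ± 0.00124 (PANC-1). The miRNAs particular to HOXC, miR-196a-3p and the arms of miR-615, made up 2.55% ± 0.267 and 8.61% ± 0.406. The remaining 1.72% ± 0.450 and 3.97% ± 0.737 were miR-196a-5p, from HOXB or HOXC. In none of these 5 shares, which add up to a whole, did the control libraries of the lines overlap. Differences between these lines were common, with 82.8% of all 627 miRNAs tested passing an adjusted p of 0.05 (edgeR). Together the 6 members took 4.77% of all counted reads in AsPC-1 controls and 5.66% in PANC-1 controls.

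In AsPC-1 the order of the members was miR-10a-5p, miR-10a-3p, miR-196a-5p, miR-196b-5p, miR-10b-5p and miR-10b-3p. In PANC-1 it was miR-10a-5p, miR-10b-5p, miR-196a-5p, miR-10a-3p, miR-10b-3p and miR-196b-5p. These levels are in RPM, for mature sequences of nearly equal length, and the recovery of different sequences by the library protocol was not calibrated here. The ranges of neighbouring members overlapped in the AsPC-1 controls only for miR-196a-5p (735 to 986 RPM) and miR-196b-5p (547 to 769). In the PANC-1 controls, those of neighbouring members were separate.

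**Figure D1:**
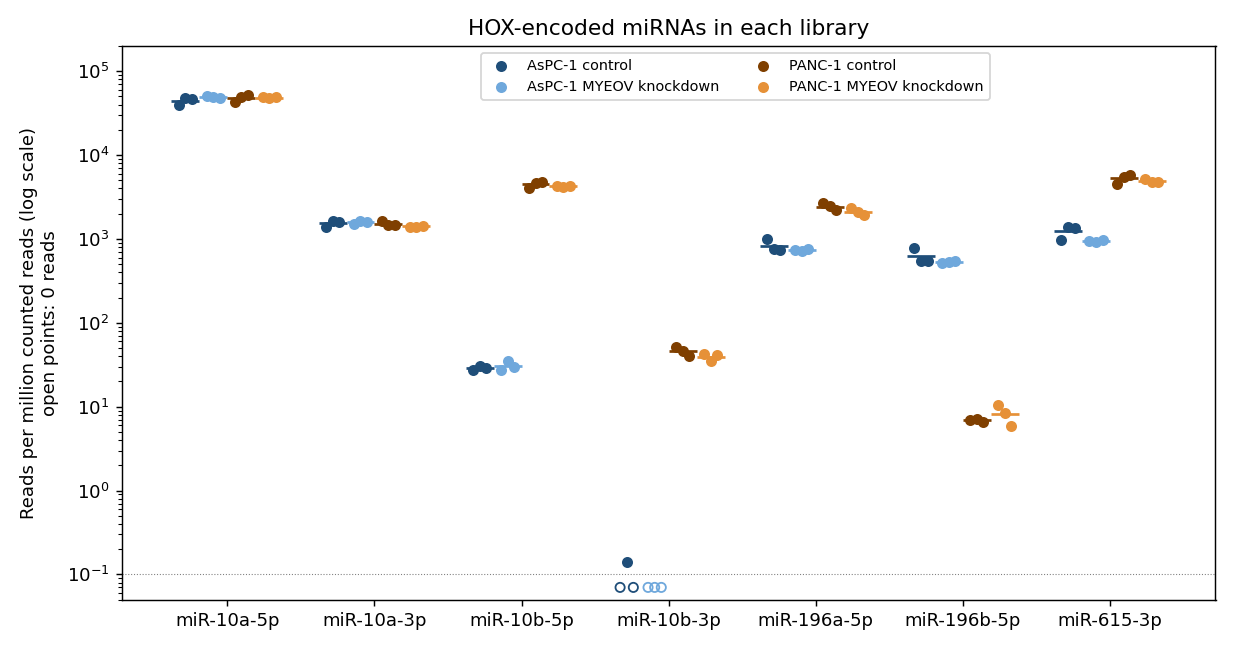
RPM (log axis) of the 6 members and of miR-615-3p in each of the 12 libraries; each point is a library, horizontal lines are group means over 3 libraries, and open points below the dotted line are libraries with 0 reads. MiR-10a-5p sits between 39950 and 52150 in all libraries, whereas miR-10b-5p is at most 34.9 in AsPC-1 and at least 4010 in PANC-1, and miR-196b-5p is at least 523 in AsPC-1 and at most 10.4 in PANC-1.

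The first comparison asked which of these miRNAs differed between the lines without MYEOV depletion. MiR-10b-3p, with 1 read in the AsPC-1 controls together, passed the filter on low counts only through PANC-1, where it is high, so it had to differ and is left out of the counts of calls between the lines. Of the other 5 members, 4 were DE between the control libraries of AsPC-1 and PANC-1, 2 higher and 2 lower in AsPC-1, beside 82.8% of all 627 miRNAs tested (36% higher and 46.7% lower). The members' share was near this background. The LFC (log2 fold change) of these 5 members ran from -6.94 to 6.82, and the median absolute LFC was 1.49 over all miRNAs. An absolute LFC over 5 with a call was found for miR-10b-5p and miR-196b-5p, beside 26.2% of all miRNAs, a share that includes miRNAs with few or no reads in one of the lines. The tests were edgeR quasi-likelihood tests, two-sided, after TMM scaling (trimmed mean of M values), with p-values adjusted over all miRNAs tested.

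MiR-10b-5p, the guide strand of the HOXD gene, had 177, 220 and 210 reads in the AsPC-1 controls and 16844, 23391 and 18344 reads in the PANC-1 controls. Every PANC-1 control was far above every AsPC-1 control. The LFC of AsPC-1 over PANC-1 was -6.94 (SE 0.15; edgeR adjusted p = 1.91e-15), that is a level 123-fold lower in AsPC-1. Among all miRNAs by mean level, miR-10b-5p ranked 229 in AsPC-1 controls and 37 in PANC-1 controls. Its passenger arm followed the same direction. MiR-10b-3p had 1 read in the 3 AsPC-1 controls together, of 20919811 counted reads, and 218, 234 and 153 reads in the PANC-1 controls. The ratio of the PANC-1 to the AsPC-1 share of reads was 970 (95% exact interval 173 to 38400, which covers counting error only). In the knockdown libraries, miR-10b-3p had 0 reads in AsPC-1 and 505 in PANC-1, so that it was at least 228-fold lower in AsPC-1, with a floor of 3 counts over the group.

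The proportion of the arms of miR-10b is given as a description, since AsPC-1 had 1 read of the 3p arm. Over all 6 libraries of a line, the 3p arm was 0.0875% of the miR-10b reads in AsPC-1 (1 of 1143 reads; exact binomial 95% interval 0.00222 to 0.486) and 0.971% in PANC-1 (interval 0.915 to 1.03). The intervals cover counting error only. Among the single libraries, the share was 0 in 5 of 6 from AsPC-1 and 0.827% to 1.28% in PANC-1. In the same AsPC-1 libraries, miR-10b-5p was 0.0543% to 0.0701% of the reads of miR-10a-5p and miR-10b-5p together, against 8.02% to 8.66% in PANC-1. Whether reads of the abundant miR-10a-5p were counted as miR-10b-5p in AsPC-1 was not tested.

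MiR-196b-5p, the guide strand of the HOXA9 locus, had 4971, 3908 and 3996 reads in the AsPC-1 controls and 29, 36 and 25 reads in the PANC-1 controls. It was 113-fold higher in AsPC-1, with an LFC of 6.82 (SE 0.18; edgeR adjusted p = 2.34e-14). Its rank among all miRNAs was 89 in AsPC-1 controls and 440 in PANC-1 controls, so that its PANC-1 level rests on few reads. The passenger miR-196b-3p had 18 to 40 reads in each AsPC-1 control and 1 read in the PANC-1 controls together. Its share of the miR-196b reads over 6 libraries was 0.709% in AsPC-1 (interval 0.603 to 0.828) and 1.03% in PANC-1 (2 of 195 reads; interval 0.124 to 3.66). Here the intervals overlapped.

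MiR-196a-5p was less divided. It had 6372, 5429 and 5371 reads in the AsPC-1 controls and 11222, 12302 and 8316 in the PANC-1 controls, and it was 2.33-fold lower in AsPC-1 (LFC -1.22, SE 0.11; edgeR adjusted p = 1.19e-07). The 3p arm of its HOXC gene, miR-196a-3p, was 4.79-fold lower in AsPC-1 (LFC -2.26; edgeR adjusted p = 1.77e-09), with 15.2 ± 1.54 and 91.4 ± 9.05 RPM. The 3p arm of its HOXB gene, miR-196a-1-3p, was listed in no library, and whether the annotation of the authors held it is not given in the sources used here. A count of 3, taken as the floor, was 0.41 to 0.788 RPM in these libraries. MiR-615-3p, the other miRNA of HOXC, was 3.36-fold lower in AsPC-1 (LFC -1.75; edgeR adjusted p = 6.04e-08). MiR-196a-3p and miR-615-3p were thus lower in AsPC-1 like miR-196a-5p, as were 46.7% of all 627 miRNAs tested. From which gene the miR-196a-5p reads came was not tested. MiR-615-5p stayed under the filter on low counts.

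MiR-10a, from HOXB, differed least between the lines among the members under TMM scaling. MiR-10a-5p had 39950, 47660 and 46340 RPM in the AsPC-1 controls and 43280, 48840 and 52150 in the PANC-1 controls. These values overlapped, and the LFC of 0.23 (SE 0.11) did not pass the threshold (edgeR adjusted p = 0.0766, 95% interval 0.00 to 0.45). Its passenger miR-10a-3p was 1.28-fold higher in AsPC-1 after scaling (LFC 0.35, SE 0.10; edgeR adjusted p = 0.00559). Scaling by the total count alone turned miR-10a-5p to an LFC of -0.11 (adjusted p = 0.32) and ended the call of miR-10a-3p, with an LFC of 0.01 (adjusted p = 0.918), whereas upper-quartile factors gave 1.15 for miR-10a-5p (adjusted p = 9.96e-07). These scalings moved the median LFC of all miRNAs, which was -0.27, by -0.34 and 0.92, and the share of calls that were higher in AsPC-1 was 43.5%, 34.2% and 63.3% in that order of TMM, total count and upper quartile. MiR-10a-5p also passed without AsPC-1 control replicate 1 (LFC 0.35, adjusted p = 0.00563) and without PANC-1 control replicate 3 (LFC 0.36, adjusted p = 0.0245). The call was reached as well in the edgeR fits without the filter on low counts (LFC 0.23, adjusted p = 0.0358), with the replicate block (0.23, adjusted p = 0.00172) and of all 12 libraries (0.37, adjusted p = 0.000879). It was not reached with DESeq2 (adjusted p = 0.101), with RLE size factors (0.0758), with at least 10 counts in every library (0.159) or with any other library left out (0.0749 to 0.228). The directions of miR-10b-5p, miR-196a-5p, miR-196b-5p and miR-615-3p were the same under each scaling, although upper-quartile factors brought the LFC of miR-196a-5p to -0.30 (adjusted p = 0.0136) and that of miR-615-3p to -0.82 (adjusted p = 0.000249). The same factors gave an LFC of -6.02 for miR-10b-5p, of 7.74 for miR-196b-5p and of -1.34 for miR-196a-3p, so that the size of their fold changes rests on the scaling.

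**Figure D2:**
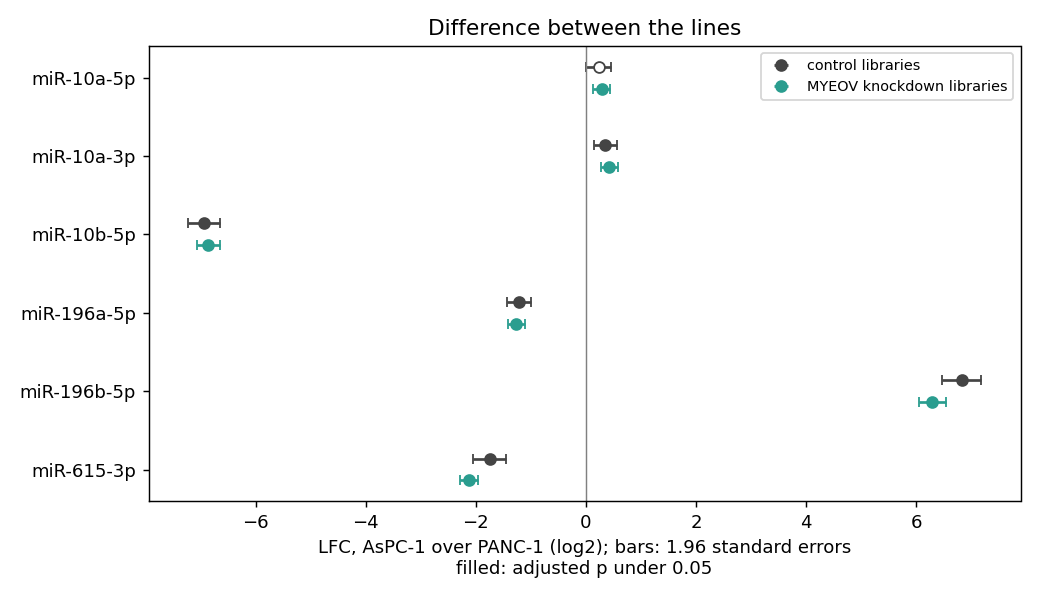
LFC of AsPC-1 over PANC-1 (log2, TMM-scaled edgeR fit) for 5 members and miR-615-3p in the control and in the MYEOV knockdown libraries; points are estimates from 3 libraries a line, bars are 95% intervals from the SE and open points did not pass the adjusted p of 0.05. MiR-10b-5p lies near -6.9 and miR-196b-5p between 6.29 and 6.82, while the miR-10a arms lie within 0.43 of 0; miR-10b-3p is left out because AsPC-1 had 1 read of it in the controls and 0 in the knockdown libraries.

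The knockdown libraries gave the same contrast in other samples of the same lines. There the 5 members other than miR-10b-3p, which had 0 reads in AsPC-1, were DE between AsPC-1 and PANC-1, 3 higher and 2 lower in AsPC-1, beside 85.9% of 609 miRNAs tested (37.6% higher and 48.3% lower). MiR-10b-5p had 163, 205 and 167 reads in AsPC-1 and 16897, 16630 and 21073 in PANC-1, with an LFC of -6.86 (SE 0.11). MiR-196b-5p had 3104, 3119 and 3032 reads in AsPC-1 and 41, 33 and 29 in PANC-1, with an LFC of 6.29 (SE 0.13). Both kept the direction seen in the controls. MiR-196a-5p had an LFC of -1.27 and miR-615-3p one of -2.12. The miR-10a arms were higher in AsPC-1, by an LFC of 0.28 for the 5p arm (edgeR adjusted p = 0.000793) and 0.43 for the 3p arm (edgeR adjusted p = 9.98e-08). With the total count alone, the LFC of miR-10a-5p was 0.04 (adjusted p = 0.551), whereas upper-quartile factors gave 1.13 for miR-10a-5p (edgeR adjusted p = 6.05e-33), 1.27 for miR-10a-3p, -0.42 for miR-196a-5p, -1.27 for miR-615-3p, -6.01 for miR-10b-5p and 7.13 for miR-196b-5p. In this fit edgeR estimated infinite prior degrees of freedom, so that its p-values rest on a spread pooled over all miRNAs. In the edgeR fit of all 12 libraries, the same contrast gave adjusted p = 1.6e-33 for miR-10b-5p, 1.52e-29 for miR-196b-5p, 1.6e-13 for miR-196a-5p, 6.4e-19 for miR-615-3p, 0.00792 for miR-10a-5p and 0.000113 for miR-10a-3p.

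Ratios within a library do not depend on the scaling, and they were used to compare the miRNAs of a family. MiR-10a-5p exceeded miR-10b-5p 1420-fold to 1840-fold in the AsPC-1 libraries and 10.5-fold to 11.5-fold in the PANC-1 libraries. MiR-196a-5p exceeded miR-196b-5p 1.28-fold to 1.41-fold in AsPC-1 and 223-fold to 380-fold in PANC-1. In PANC-1 the a form exceeded the b form at least 10.5-fold in both families, whereas in AsPC-1 the forms of miR-196 were within 1.41-fold of each other. On the log2 scale, the lines differed by 7.16 for miR-10 and by -8.02 for miR-196 in the controls, with no overlap. The exact two-sided permutation test gave p = 0.1 for each, the smallest value 3 libraries against 3 allow, and 0.162 after adjustment over the 13 ratio tests. The 5p arm of miR-10a exceeded the 3p arm 26.3-fold to 36-fold over all libraries, and that of miR-10b 77.1-fold to 120-fold in PANC-1.

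**Figure D3:**
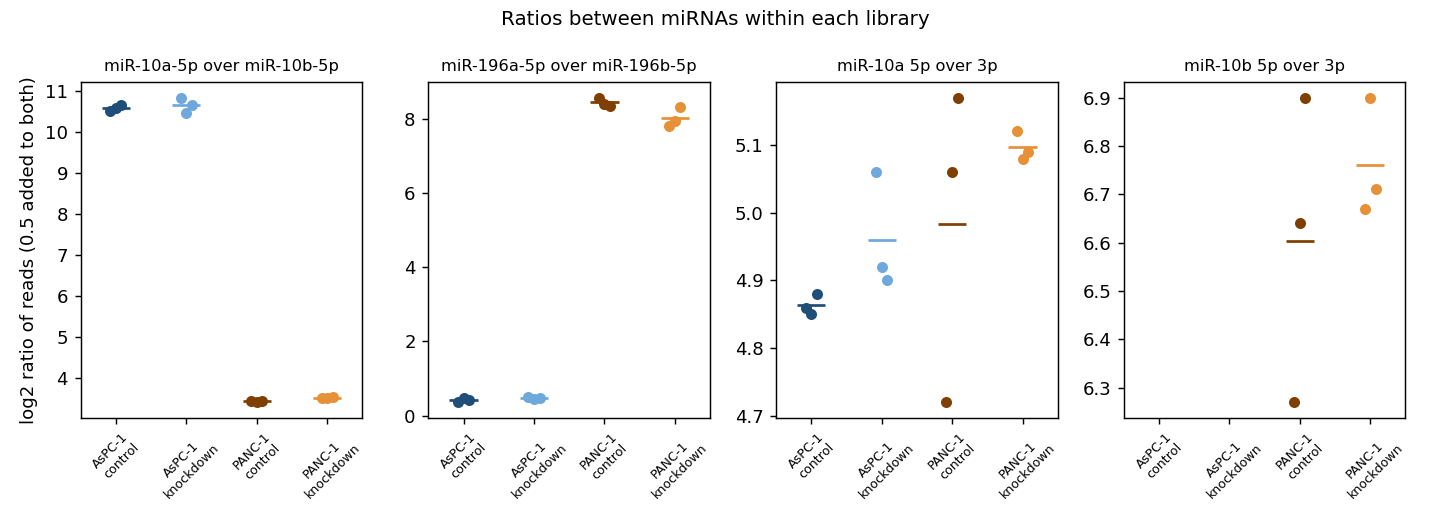
Log2 ratio of the reads of a pair of miRNAs in the same library (0.5 added to both counts), by group; points are libraries and horizontal lines are means over 3. The ratio of miR-10a-5p to miR-10b-5p is near 10.6 in AsPC-1 and near 3.5 in PANC-1, that of miR-196a-5p to miR-196b-5p is near 0.4 and 8; the vertical axes differ between panels and those of the arm ratios do not start at 0.

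MYEOV depletion changed none of the tested members beyond the threshold in AsPC-1. With edgeR, 0 of the 5 members tested were DE, beside 11.4% of 498 miRNAs, and 0 had an unadjusted p under 0.05, beside 24.7%. DESeq2 also called 0 members. MiR-10b-3p, with 1 read in the 6 libraries, was not tested. The median absolute LFC was 0.14 over the members and 0.19 over all miRNAs tested. Values by library are given as CPM, counts per 1000000 reads after TMM scaling in the fit of the line.

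MiR-10a-5p had 38180, 48190 and 47380 CPM in the AsPC-1 controls and 51710, 48920 and 48730 CPM after MYEOV knockdown. The groups did not overlap, as for 30.5% of all miRNAs tested, and control replicate 1 was the lowest library. The LFC was 0.16 (SE 0.09; edgeR adjusted p = 0.297, 95% interval -0.02 to 0.34), and leaving out a library in turn gave 0.07 to 0.21. MiR-196b-5p had 735, 553 and 558.8 CPM in the controls and 535, 522.1 and 547.8 CPM after knockdown. Here, too, the groups did not overlap, and control replicate 1 was the highest. The LFC was -0.20 (SE 0.11; edgeR adjusted p = 0.249, 95% interval -0.41 to 0.00), and it was -0.05 at its smallest and -0.28 at its largest with a library left out. MiR-196a-5p gave an LFC of -0.14 (adjusted p = 0.355), miR-10b-5p 0.10 (adjusted p = 0.702) and miR-10a-3p 0.06 (adjusted p = 0.714) in the same edgeR fit, and their groups overlapped. With a library left out, miR-196a-5p spanned -0.20 to -0.03, the latter without control replicate 1. MiR-10b-5p spanned 0.02 to 0.16, and was lowest without knockdown replicate 2 and 0.04 without control replicate 1. The direction of miR-10a-3p turned to -0.03 without control replicate 1 and in the fit of all 12 libraries.

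MiR-615-3p, beside the members in HOXC, came closest to the threshold in AsPC-1. It had 928.1, 1406 and 1384 CPM in the controls and 955, 912.8 and 978.7 CPM after knockdown, so that control replicate 1 lay among the knockdown libraries. The LFC was -0.39 (SE 0.13; edgeR adjusted p = 0.0586). Without control replicate 1 it was -0.55 (edgeR adjusted p = 1.9e-07), and the call was also reached with the total count alone (adjusted p = 0.0441), without the filter on low counts (0.00108), with DESeq2 (0.0318) and in the edgeR fit of all 12 libraries (0.00441). The call was not reached with upper-quartile factors (LFC -0.37, edgeR adjusted p = 0.0916), RLE size factors (0.0898), at least 10 counts in every library (0.0966) or the replicate block (0.163). With any of the other 5 libraries left out, the LFC was -0.41 to -0.29 and the edgeR adjusted p was 0.129 to 0.238. MiR-196a-3p had an LFC of -0.25 (edgeR adjusted p = 0.347, 95% interval -0.56 to 0.06) with no overlap of the groups. MiR-196b-3p had 0.09 (edgeR adjusted p = 0.899).

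In PANC-1, MYEOV depletion likewise gave no call among the members. With edgeR, 0 of 6 were DE, beside 22% of 551 miRNAs tested, and 0 had an unadjusted p under 0.05, beside 35.8%. DESeq2 called 0, and it gave no adjusted p for miR-196b-5p. The median absolute LFC was 0.08 over the members and 0.22 over all miRNAs. None of the 6 members had groups that did not overlap, beside 36.7% of all miRNAs.

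MiR-10a-5p had 39980, 46330 and 51340 CPM in the PANC-1 controls and 49990, 49370 and 53240 CPM after knockdown, with an LFC of 0.15 (SE 0.10; edgeR adjusted p = 0.267, 95% interval -0.04 to 0.34). It was 0.05 without control replicate 1, 0.22 without control replicate 3 and 0.01 with the total count alone. MiR-10b-5p had 3706, 4394 and 4746 CPM in the controls and 4398, 4375 and 4644 CPM after knockdown. Its knockdown libraries lay within the range of its controls, and the LFC was 0.06 (edgeR adjusted p = 0.653, 95% interval -0.11 to 0.24). MiR-196b-5p had the largest estimate, 0.37 (SE 0.25; edgeR adjusted p = 0.281, 95% interval -0.11 to 0.86), but only 25 to 41 reads per library lay behind it. It was 0.18 without knockdown replicate 1, 0.56 without knockdown replicate 3 and 0.23 with the total count alone. Its CPM were 6.381, 6.763 and 6.468 in the controls and 10.67, 8.681 and 6.391 after knockdown, so that knockdown replicate 3 was within the controls. The same edgeR fit gave -0.06 for miR-196a-5p (adjusted p = 0.665), -0.09 for miR-10b-3p (adjusted p = 0.667), 0.04 for miR-10a-3p (adjusted p = 0.785) and 0.03 for miR-615-3p (adjusted p = 0.833). With the total count alone, which moved the median of all miRNAs by -0.15, miR-10a-3p, miR-10b-5p and miR-615-3p turned to -0.11, -0.08 and -0.11, with no call, and miR-196a-5p and miR-10b-3p were at -0.20 and -0.23. With a library left out, miR-196a-5p spanned -0.12 to -0.01, lowest without knockdown replicate 1 and nearest to 0 without knockdown replicate 3. MiR-10b-3p spanned -0.17 to -0.01, lowest without control replicate 3 and nearest to 0 without knockdown replicate 2.

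**Figure D4:**
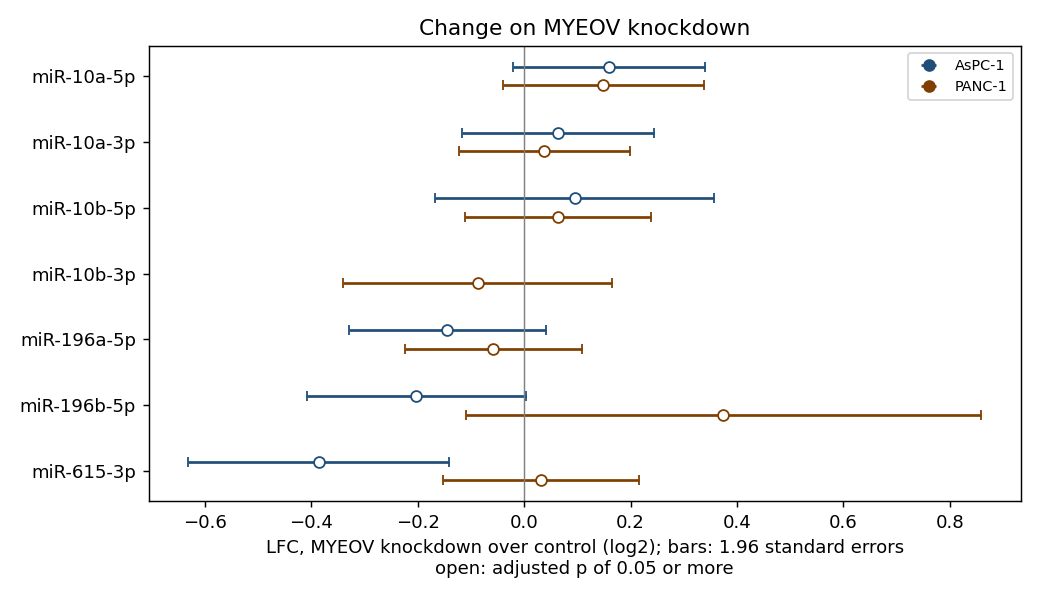
LFC of MYEOV knockdown over control (log2, TMM-scaled edgeR fit of each line) for the 6 members and miR-615-3p; points are estimates from 3 against 3 libraries, bars are 95% intervals from the SE, and all points are open because none passed the adjusted p of 0.05. The members lie between -0.20 and 0.37, miR-615-3p in AsPC-1 lies at -0.39, and miR-10b-3p has no AsPC-1 value because it was not tested there.

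The last comparison asked whether the lines differed in their change on MYEOV depletion. By the interaction of line and treatment in edgeR, 0 of 6 members differed, beside 0.308% of 650 miRNAs, and 1 member had an unadjusted p under 0.05, beside 11.4%. DESeq2 called 0 members as well. The member was miR-196b-5p, with a difference in LFC, AsPC-1 minus PANC-1, of -0.68 (SE 0.27; edgeR adjusted p = 0.28, 95% interval -1.20 to -0.16). It was -0.45 without PANC-1 knockdown replicate 1, -0.83 without PANC-1 knockdown replicate 3, -0.45 with the total count alone and -0.51 with RLE size factors. The differences of the members other than miR-10b-3p and miR-196b-5p lay between -0.19 and -0.06, and those of miR-10a-5p, miR-10a-3p and miR-10b-5p turned positive with RLE size factors or the total count. MiR-10b-3p differed by -1.66 (SE 1.44; edgeR adjusted p = 0.684, 95% interval -4.48 to 1.16), a value that rests on 1 AsPC-1 read and was 0.09 without AsPC-1 control replicate 2. MiR-615-3p differed by -0.51 (edgeR adjusted p = 0.111), which passed without AsPC-1 control replicate 1 (-0.68, adjusted p = 2.66e-05), without PANC-1 control replicate 3 (-0.58, adjusted p = 0.0367) and without the filter on low counts (-0.54, adjusted p = 0.0428).

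The shares of the loci were described before and after MYEOV depletion, without a test, since they add up to a whole. In AsPC-1, the HOXB share was 93.7% to 94.7% in the controls and 95.6% to 95.9% after knockdown, and the HOXC share, mostly miR-615-3p, was 2.24% to 2.71% and 1.74% to 1.88%. The HOXA share was 1.06% to 1.76% and 0.971% to 1.05%. None of these 3 shares overlapped between the groups, whereas the HOXD share did, and the ranges of miR-196a-5p, 1.45% to 2.24% and 1.35% to 1.45%, met. Control replicate 1, the library that stood apart, had the HOXA share of 1.76% and the HOXB share of 93.7%. The other controls had HOXA shares of 1.06% and 1.09%, close to the highest knockdown library at 1.05%, and HOXB shares of 94.7% each. In the HOXC share it was the control nearest to the knockdown libraries, with 2.24% against 2.7% and 2.71%. Of all miRNAs tested, by CPM, 30.5% had groups that did not overlap in AsPC-1 and 36.7% had such groups in PANC-1. In PANC-1, the HOXB share was 79.8% to 80.6% and 80.8% to 82%, and the HOXD share was 7.22% to 7.42% and 6.97% to 7.06%, again without overlap. The PANC-1 shares of HOXA, HOXC and miR-196a-5p overlapped between the groups.

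Within the families, the ratios that did not overlap between the groups differed by less than 0.5 on the log2 scale. In PANC-1, miR-10b-5p was 8.48%, 8.66% and 8.46% of the reads of both miR-10 guides in the controls and 8.09%, 8.14% and 8.02% after knockdown. The groups did not overlap, and the log2 ratio of miR-10a-5p to miR-10b-5p differed by 0.09, from 3.42 ± 0.02 to 3.51 ± 0.01 (exact permutation p = 0.1, adjusted 0.162). It stayed at 0.07 to 0.09 with any 1 library left out. The log2 ratio of miR-196a-5p to miR-196b-5p in PANC-1 was 8.44 ± 0.12 in the controls and 8.02 ± 0.27 after knockdown, again without overlap (exact permutation p = 0.1, adjusted 0.162). In AsPC-1, the ratio of the miR-10a arms was 4.86 ± 0.02 and 4.96 ± 0.08 without overlap (exact permutation p = 0.1, adjusted 0.162), and the difference of 0.10 fell to 0.05 without knockdown replicate 1, whereas the ratios of the guide strands overlapped between the groups in both families.

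Related families were counted in the same fits. The relatives of miR-10 by sequence, the 5p arms of miR-99a, miR-99b, miR-100, miR-125a and miR-125b, are encoded outside the HOX clusters. All 5 were lower in AsPC-1 controls than in PANC-1 controls, beside 46.7% of all 627 miRNAs tested. Their LFC were -3.57 to -0.92, and they summed to 12000 to 12500 RPM against 140000 to 143000. With upper-quartile factors 4 of them were lower and 1 was at an LFC of 0.00. None of them was DE on MYEOV depletion in either line (edgeR, LFC -0.18 to 0.11), and with the total count alone 1 was lower in PANC-1. The let-7 guides, whose seed is shifted by a base against that of miR-196, are 9 miRNAs. Of these, 5 were higher and 3 lower in AsPC-1 controls, beside 36% and 46.7% of all miRNAs tested. With upper-quartile factors 8 were higher and 1 lower, beside 345 and 200 of all 627 miRNAs. On MYEOV depletion, AsPC-1 had 0 DE let-7 guides of these 9, and PANC-1 had 4 that rose and 0 that fell (edgeR), beside 22% of all miRNAs called in that line. The PANC-1 number was 2 with RLE size factors, 1 with upper-quartile factors and 0 with the total count alone, where the LFC were -0.08 to 0.18. Of the 5 other HOX-encoded miRNAs, miR-196a-3p, miR-196a-1-3p, miR-196b-3p and the arms of miR-615, 3 were tested between the lines. MiR-196b-3p passed the filter on low counts only through AsPC-1, where it is high, so it had to differ and is not counted. MiR-196a-3p and miR-615-3p were lower in AsPC-1 controls, beside 46.7% of all miRNAs tested. On MYEOV depletion 0 of these miRNAs were DE in either line (edgeR), beside 11.4% (AsPC-1) and 22% (PANC-1) of all miRNAs.

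The miRNAs most like each member over the 12 libraries, by Pearson correlation of log2 CPM among 650 miRNAs, were named as a description. The libraries fall into the lines, so a high r over 12 libraries mostly states the same contrast of the lines, and r within the 6 libraries of each line is given in brackets for AsPC-1 and PANC-1. MiR-10a-5p was nearest to miR-122-5p (r = 0.937; 0.695 and 0.87), which had only 2.38 to 10.8 RPM, miR-26a-5p (0.926; 0.765 and 0.848) and let-7f-5p (0.924; 0.916 and 0.733). MiR-10a-3p was nearest to miR-26b-5p (0.969; 0.792 and 0.64), miR-4796-3p (0.965; 0.813 and -0.427) and miR-26a-5p (0.958; 0.963 and 0.076). MiR-10b-5p was nearest to miR-363-3p, miR-337-5p and miR-432-5p (each 0.999), and miR-10b-3p to miR-380-3p, miR-377-5p and miR-539-5p (each 0.999). MiR-196a-5p was nearest to miR-362-5p (0.991; 0.924 and 0.639), miR-152-3p (0.99; 0.934 and 0.441) and miR-424-5p (0.99; 0.912 and 0.778). MiR-196b-5p was nearest to miR-452-5p (0.998; 0.868 and 0.557), miR-200c-3p (0.998; 0.819 and 0.663) and miR-224-3p (0.998; 0.855 and 0.347). Within the lines, the r of the miRNAs nearest to miR-10b-5p was 0.196, 0.196 and 0.794 in AsPC-1 and 0.417, 0.477 and -0.341 in PANC-1. For those nearest to miR-10b-3p it was 0.731, 0.863 and 0.0834 in PANC-1, and no r is given for AsPC-1, where 5 of 6 libraries had 0 reads of miR-10b-3p.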

How the data were processed

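The 12 small RNA libraries were analysed in 4 groups of 3 as labelled. The authors trimmed adapters, mapped reads to hg19 with Bowtie (version not given in the sources used here), used only reads of miRNA length that matched perfectly, and deposited raw counts per mature miRNA. Each count sums the commonest sequence of a miRNA and those sharing its 5′ end, which leaves out isoforms shifted there. An unlisted miRNA was given a count of 0.

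Counts were tested with edgeR 4.0.16 in R 4.3.3: filterByExpr with a minimum count of 10, TMM scaling, the quasi-likelihood F test (two-sided), and Benjamini-Hochberg adjustment over all miRNAs of a fit with a threshold of 0.05. The SE is the absolute LFC over the square root of F, and intervals of an LFC are 95% normal intervals from it. Each comparison was fitted on its 6 libraries, and the interaction on all 12. RPM use total counts without TMM factors. Ratios were tested by exact permutation over libraries. The fits were tested on simulated data. Libraries held 3805084 to 7311783 counted reads; a floor of 3 counts and all intervals of shares cover counting error only. No replicates agreed within sampling noise. Alternatives were RLE, upper-quartile and total-count scaling, no filter or at least 10 counts in every library, DESeq2 1.42.0, a replicate block, one fit of 12 libraries, other pseudocounts and leaving out each library.

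MIR10A was placed on GRCh37 by exact match of its RefSeq hairpin, and the other hairpins by GENCODE (v44 lifted to GRCh37). The named miRNAs are the 6 members whatever their result, the other HOX-encoded miRNAs, counts of the miR-10 relatives and let-7 guides, and for each member the 3 miRNAs with the highest correlation. Members, lists and tests were chosen with earlier results of these data known. Labels and methods differ on harvest time, sequencer and control, and the labels were followed.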

Additional observations from a re-analysis of the deposited data

How the results depend on the processing

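In the AsPC-1 knockdown, PANC-1 knockdown and interaction fits, 0 members were called under every alternative run; DESeq2 gave no adjusted p for miR-196b-5p in PANC-1. Between the lines, miR-10b-3p is left out, as above. MiR-10b-5p, miR-196a-5p and miR-196b-5p were called under every alternative run, in the controls and in the knockdown libraries. MiR-10a-3p was called under all of them in the knockdown libraries, and in the controls under all but the total count (edgeR adjusted p = 0.918). MiR-10a-5p was called in the controls only under the alternatives named above. In the knockdown libraries it was called under all but the total count (edgeR adjusted p = 0.551). The numbers of all miRNAs called, behind the shares given above, were less stable. In AsPC-1 it was 57, 29 with the replicate block, and 24 to 102 with a library left out (102 without control replicate 1, 24 and 31 without knockdown replicates 1 and 3). In PANC-1 it was 121, 67 in the fit of all 12 libraries, and 55 to 129 with a library left out (68 and 55 without knockdown replicates 2 and 3). Between the lines it was 519 in the controls and 523 in the knockdown libraries, 303 and 315 with at least 10 counts in every library, where fewer miRNAs were tested, and 508 to 530 and 520 to 527 with a library left out. For the interaction it was 2, 4 with upper-quartile factors, 10 without a filter, and 1 to 25 with a library left out (25, 20 and 1 without AsPC-1 control replicates 1 and 2 and knockdown replicate 1, 5 and 13 without PANC-1 control replicates 1 and 3). The share of calls that were higher on knockdown was 61.4% in AsPC-1 (79.3% with the block, 35.7% in the fit of 12) and 57.9% in PANC-1 (69.1% with upper-quartile factors, 18.2% with the total count).

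Replicate numbers are shared by the groups, but the deviations of same-numbered libraries did not correlate above 0.1 in every pair of any comparison, so the numbers were not taken to pair them (AsPC-1 r = -0.155 to 0.128, PANC-1 r = 0.029 to 0.139, 0.0827 to 0.248 between the control and -0.0316 to 0.0138 between the knockdown libraries). With the replicate block, the calls numbered 29 and 153 on knockdown, 537 between the control lines and 2 in the interaction, no member was called on knockdown, and miR-10a-5p passed between the control lines (LFC 0.23, edgeR adjusted p = 0.00172), as it did without the filter (0.0358) and in the fit of 12 (0.000879).

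Directions turned only for LFC that were not called in the fit as reported and not called where they turned. On knockdown these were miR-10a-3p in AsPC-1 (-0.029 in the fit of 12, -0.027 to 0.122 with a library left out) and, in PANC-1, miR-10a-3p, miR-10b-5p and miR-615-3p with the total count (-0.108, -0.078 and -0.106), the latter 2 also with a library left out (-0.045 to 0.129 and -0.099 to 0.112). Between the control lines, miR-10a-5p turned to -0.107 with the total count, although some other alternatives called it as higher in AsPC-1. The interaction of miR-10a-3p, miR-10a-5p and miR-10b-5p turned to 0.09, 0.077 and 0.1 with RLE factors and with DESeq2, and to 0.163, 0.142 and 0.164 with the total count, where miR-196a-5p gave 0.039. With a library left out it spanned -0.159 to 0.014, -0.179 to 0.008 and -0.185 to 0.066 for these 3 miRNAs, and -2.075 to 0.092 for miR-10b-3p. Of the log2 ratios, the arms of miR-10a and miR-10b in PANC-1 (-0.015 to 0.212 and -0.011 to 0.306) and miR-10a-5p to miR-10b-5p in AsPC-1 (-0.02 to 0.163) changed sign with a library left out. The causes were not tested. The values of miR-196b-5p in PANC-1 and miR-10b-3p in AsPC-1 rest on at most 41 and 1 reads per library, which limits their precision.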
